A study of Mus musculus with 10 samples.

Results

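Near 6 Mb of mouse chromosome 17, in the sequence of the C57BL/6J genome, a pair of neighbouring genes is present in several tandem copies. The copies described here are Tmem181a, Tmem181b-ps and Tmem181c-ps, and Dynlt1a, Dynlt1b, Dynlt1c and Dynlt1f, in lung eosinophils of P2ry14-null and wild-type (WT) mice. They are 7 rows of the 35725 gene rows in the deposited count table, taken by gene symbol, and no other row carries either family name. The set was chosen by earlier results on the same libraries: Tmem181b-ps, Dynlt1b and Tmem181a stood among the genes higher in P2ry14-null. For the members, the difference between genotypes is therefore given as a description: no p-value is given for them, and counts of calls stand only beside the share over all genes.

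The mice were male, and both groups had the same model of allergic asthma. They were given 50 µg of ovalbumin (OVA) with 20 µg of Aspergillus oryzae protease into the throat on a pair of occasions, then an aerosol of 1% OVA 7 days after the last of them, and lung eosinophils were sorted by flow cytometry 16 h later. The WT group is strain C57BL/6J and the other group is P2ry14-null, without the UDP-sugar receptor P2Y14, and each group has 5 libraries. The labels do not state the strain background of the P2ry14-null mice, the way the allele was made, the ages or whether each library came from a separate mouse, so any p-value measures the spread between these libraries, which may be technical. None of the libraries used here came from mice outside the asthma model.

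Dynlt1 encodes a Tctex-type light chain of cytoplasmic dynein, the motor that carries cargo along microtubules towards the cell centre. The light chain sits on the dynein intermediate chain as a dimer and also binds other proteins outside the motor. Tmem181 encodes a membrane protein of the family with an outer GOLD domain and a bundle of membrane helices, which also holds the Wnt carrier Wls and Gpr107. Human TMEM181 is known as a host factor for a bacterial cytolethal distending toxin. The names ending in -ps mark copies annotated as pseudogenes, and such copies can still be transcribed.

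The first thing the sequences show is how little separates the Dynlt1 copies. Each of the 4 has a coding sequence of 339 bases in GENCODE M21 (the stop codon not counted), and these were compared. A second coding transcript of Dynlt1a, with 336 coding bases, was not. Dynlt1a, Dynlt1c and Dynlt1f had 0 differences between them over these 339 bases, and Dynlt1b differed from each of them at 1 base, C21A (the base of Dynlt1a first, positions counted from 1 at the A of the start codon). The codon is TCC in Dynlt1a, Dynlt1c and Dynlt1f and TCA in Dynlt1b, and both encode serine. The first 60 coding bases of each copy follow, 5′ to 3′ on the coding strand, from the GENCODE transcripts on GRCm38, with position 21 in capitals, because it is the 1 base of the 339 that separates Dynlt1b from the other copies, which are identical over this sequence.
Dynlt1a: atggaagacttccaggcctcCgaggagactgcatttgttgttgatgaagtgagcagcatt
Dynlt1b: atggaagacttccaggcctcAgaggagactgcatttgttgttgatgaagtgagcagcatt
Dynlt1c: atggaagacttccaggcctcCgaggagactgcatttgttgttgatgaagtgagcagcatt
Dynlt1f: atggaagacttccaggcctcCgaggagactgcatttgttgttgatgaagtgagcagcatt

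The Tmem181 copies are nearly as close. Over the 1336 coding positions of Tmem181a that could be aligned with the annotated pseudogene transcripts of both other copies, 11 positions differed. Tmem181a had a base of its own at 4 of them, Tmem181b-ps at 2 and Tmem181c-ps at 5. Aligned with Tmem181a, the Tmem181c-ps transcript held 48 additional bases, and the Tmem181b-ps transcript lacked 2. The stretch of 90 coding bases with the most differences, positions 142 to 231 counted from the A of the start codon of Tmem181a, is shown with its 3 differing positions in capitals, since reads over it can tell the copies apart.
Tmem181a: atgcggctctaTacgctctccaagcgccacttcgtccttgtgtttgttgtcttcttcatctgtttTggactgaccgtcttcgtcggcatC
Tmem181b-ps: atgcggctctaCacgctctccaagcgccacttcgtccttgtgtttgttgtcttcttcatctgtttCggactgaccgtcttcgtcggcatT
Tmem181c-ps: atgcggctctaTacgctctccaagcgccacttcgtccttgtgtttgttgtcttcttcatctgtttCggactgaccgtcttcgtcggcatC
Against Tmem181a, Tmem181b-ps has T153C, T207C and C231T here, and Tmem181c-ps has T207C.

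Windows of 300 bases around annotated starts were in the RefSeq table (GRCm38.p6) for Tmem181a, Dynlt1c and Dynlt1f. Most of each window lies upstream, but it runs past the start, and that of Dynlt1c ends inside the coding sequence. The windows of Dynlt1c and Dynlt1f overlapped in sequence, and over the 142 bases that end at the annotated start of Dynlt1f they differed at 3 positions. They are shown 5′ to 3′ with these positions in capitals, because these are the upstream sequences of the lowest of the 7 copies per length and of a copy with a higher level.
Dynlt1c, chr17:6601529-6601670, plus strand: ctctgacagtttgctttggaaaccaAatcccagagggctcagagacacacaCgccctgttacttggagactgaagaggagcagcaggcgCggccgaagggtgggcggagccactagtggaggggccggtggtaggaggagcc
Dynlt1f, chr17:6655940-6656081, minus strand: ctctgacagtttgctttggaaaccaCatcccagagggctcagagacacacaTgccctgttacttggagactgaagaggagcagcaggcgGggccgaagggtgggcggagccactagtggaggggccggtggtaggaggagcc
From Dynlt1c to Dynlt1f the changes are A26C, C52T and C90G, counted from the first base shown. In the full windows of 300 bases, GC content was 63.0% for Dynlt1c, 57.3% for Dynlt1f and 70.0% and 65.0% for the 2 starts of Tmem181a, where the median over 32851 windows was 52.7%. The motif GGGCGG, searched on both strands, was present in all 4 windows and in 35.66% of the 32851. CCAAT was present in the Dynlt1c and Dynlt1f windows and in 1 of the 2 Tmem181a windows, and in 37.41% of all windows. TATAAA was in none of the 4 and in 13.62% of all windows.

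On mm10 the 7 copies span 399.1 kb of chromosome 17, from 6256862 to 6655939. Tmem181a (6256862 to 6308314, plus strand) and Dynlt1a (6306344 to 6317474, minus strand) converge and overlap at their 3′ ends, where they share 580 exon bases on opposite strands. After a gap of 112.637 kb come Dynlt1b (6430112 to 6436296, plus strand) and Tmem181b-ps (6439002 to 6450994, minus strand), 2.705 kb apart. After 150.784 kb come Dynlt1c (6601779 to 6607891, plus strand) and Tmem181c-ps (6610103 to 6620925, minus strand), 2.211 kb apart, and Dynlt1f (6646606 to 6655939, minus strand) lies 25.68 kb further. The copies thus form 3 convergent pairs of 1 Dynlt1 and 1 Tmem181 gene, with Dynlt1f beside the last pair. The 3 other rows of the table that fall between the copies, Gm29719, Gm2808 and Gm29721, held 11, 58 and 10 reads over all 10 libraries.

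How much of each transcript is private to its copy sets how its reads can be counted. Of all 50-base words in the GENCODE transcripts of Tmem181a, 65.62% occurred in the transcripts of no other gene on either strand. The share was 49.17% for Tmem181b-ps and 27.67% for Tmem181c-ps. In the Dynlt1 family it was 29.49% for Dynlt1a, 16.76% for Dynlt1b, 11.07% for Dynlt1c and 11.41% for Dynlt1f. With words of 100 bases the shares were 75.67%, 66.71% and 48.25% for the Tmem181 copies and 45.31%, 18.01%, 19.27% and 22.03% for the Dynlt1 copies. Neither the read length nor the handling of reads that match several copies is given in the sources used here, and words elsewhere in the genome were not searched. Reads of 1 copy may therefore have been dropped or assigned to another, and the value of each row is uncertain as a measure of that copy alone.

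**Figure D1:**
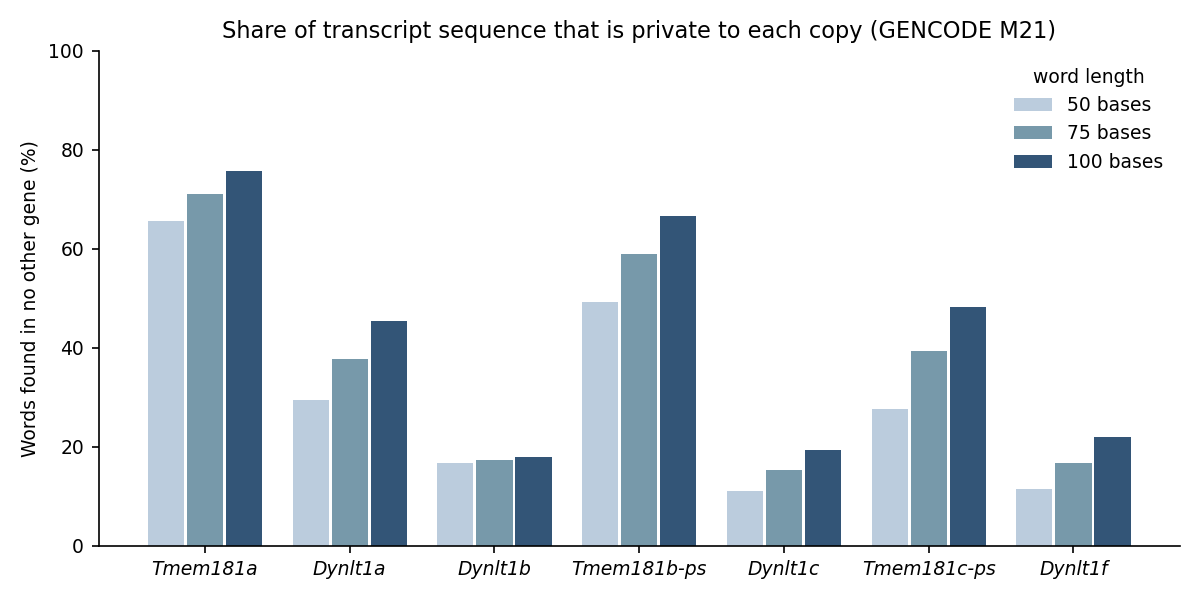
Share of 50-, 75- and 100-base words (percent, bars from 0) in the GENCODE M21 transcripts of each copy that occur in no other gene's transcripts, with the copies in chromosome order. Tmem181a has the highest share at each length, from 65.62% to 75.67%, and Dynlt1b stays between 16.76% and 18.01%.

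Total counts ran from 67161968 to 185124080 reads per library. Levels are given as counts-per-million (CPM), the reads of a gene scaled to library size. The mean CPM of P2ry14 itself was 211 ± 16.0 for WT and 23.2 ± 1.02 for P2ry14-null (SD, n = 5 each), in the direction of the labels. Eosinophil markers were present in every library: 8 genes including Siglecf, Ccr3 and Il5ra summed to 3635 to 4206 CPM in WT and 3772 to 4120 in P2ry14-null. Markers of other cells were present too, at 105.7 to 143.6 CPM in WT for 6 class II antigen presentation genes and 3693 to 4632 CPM for 6 neutrophil genes. Retnlg made up nearly all of the neutrophil sum, with a mean of 3942 CPM over all libraries. Cxcr2 and S100a9 were at 131.5 and 115.75 CPM, and Ly6g, S100a8 and Mmp8 at 1.44, 1.48 and 1.24 CPM. None of the genes of the 9 marker lists was at 0 in all libraries. P2ry14-null library 2 stood apart with 427.5 CPM of class II genes, where the other P2ry14-null libraries reached at most 120.8. It also held 2148 CPM of 5 alveolar macrophage genes against at most 845.8, and 72.49 CPM of 6 lung epithelial genes against at most 18.19. Most of the macrophage sum in that library was Chil3, at 1520.5 CPM, and Car4, at 589.67. Mrc1, Fabp4 and Marco were at 32.5, 5.50 and 0.078 CPM. Car4 and Marco did not stand apart, with up to 562.39 and 0.142 CPM in WT. In such sorted bulk samples, fewer cells of a type and less RNA per cell cannot be told apart.

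Tmem181b-ps, the pseudogene beside Dynlt1b (gene ID 547127), had the most reads of the 7 rows, from 2235 to 6318 per library. WT libraries 1 to 5 held 17.04, 19.7, 20.3, 17.9 and 18.8 CPM. The P2ry14-null values were 39.6, 26.7, 28.8, 21.4 and 40.5 CPM, in the same order. Every P2ry14-null library was above every WT library, library 4 of the P2ry14-null group only just, and its libraries 1 and 5 were highest. The means were 18.7 ± 1.31 CPM in WT and 31.4 ± 8.35 in P2ry14-null (SD, n = 5 each), a log2 fold change of 0.74 ± 0.15 (SE, edgeR), P2ry14-null minus WT. The WT libraries lay close together and the P2ry14-null libraries were spread widely.

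Dynlt1b (gene ID 21648), which encodes the light chain and lies 2.705 kb from Tmem181b-ps, had 380 to 935 reads per library. WT libraries 1 to 5 held 3.04, 3.18, 3.45, 3.16 and 4.71 CPM. The P2ry14-null values, in order, were 7.62, 5.78, 4.86, 3.78 and 5.99 CPM. The groups overlapped, because WT library 5 was above P2ry14-null library 4. The means were 3.51 ± 0.69 CPM in WT and 5.61 ± 1.42 in P2ry14-null (SD, n = 5 each), with a log2 fold change of 0.67 ± 0.17 (SE).

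Tmem181a (gene ID 77106), the copy annotated as protein coding, differed less. WT libraries 1 to 5 held 10.7, 13.0, 12.9, 12.5 and 13.1 CPM, and the P2ry14-null values were 15.8, 14.1, 14.1, 13.8 and 16.2 CPM. The groups did not overlap, but the highest WT and the lowest P2ry14-null library were 13.1 and 13.8 CPM. The means were 12.5 ± 1.00 and 14.8 ± 1.09 CPM (SD, n = 5 each), with a log2 fold change of 0.25 ± 0.07 (SE).

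The values of the remaining 4 copies follow. Tmem181c-ps (gene ID 100040525), the pseudogene beside Dynlt1c, ran from 4.55 to 5.69 CPM in WT and from 4.20 to 5.29 in P2ry14-null, with a log2 fold change of -0.11 ± 0.09 (SE). Dynlt1f (gene ID 100040531), a coding copy, ran from 5.25 to 6.54 CPM in WT and from 5.44 to 6.43 in P2ry14-null, at -0.04 ± 0.08. Dynlt1a (gene ID 100310872), also coding, ran from 2.58 to 3.37 and from 2.56 to 3.09 CPM, at -0.05 ± 0.10. Dynlt1c (gene ID 100040563) was near the limit of detection for a contrast, with 17 to 43 reads per library, from 0.147 to 0.246 CPM in WT and 0.132 to 0.276 in P2ry14-null, at 0.20 ± 0.23. Leaving out 1 library moved that of Dynlt1c to 0.10 (without P2ry14-null library 5), 0.12 (without WT library 4) or 0.34 (without P2ry14-null library 4). For these 4 copies the ranges of the groups overlapped.

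**Figure D2:**
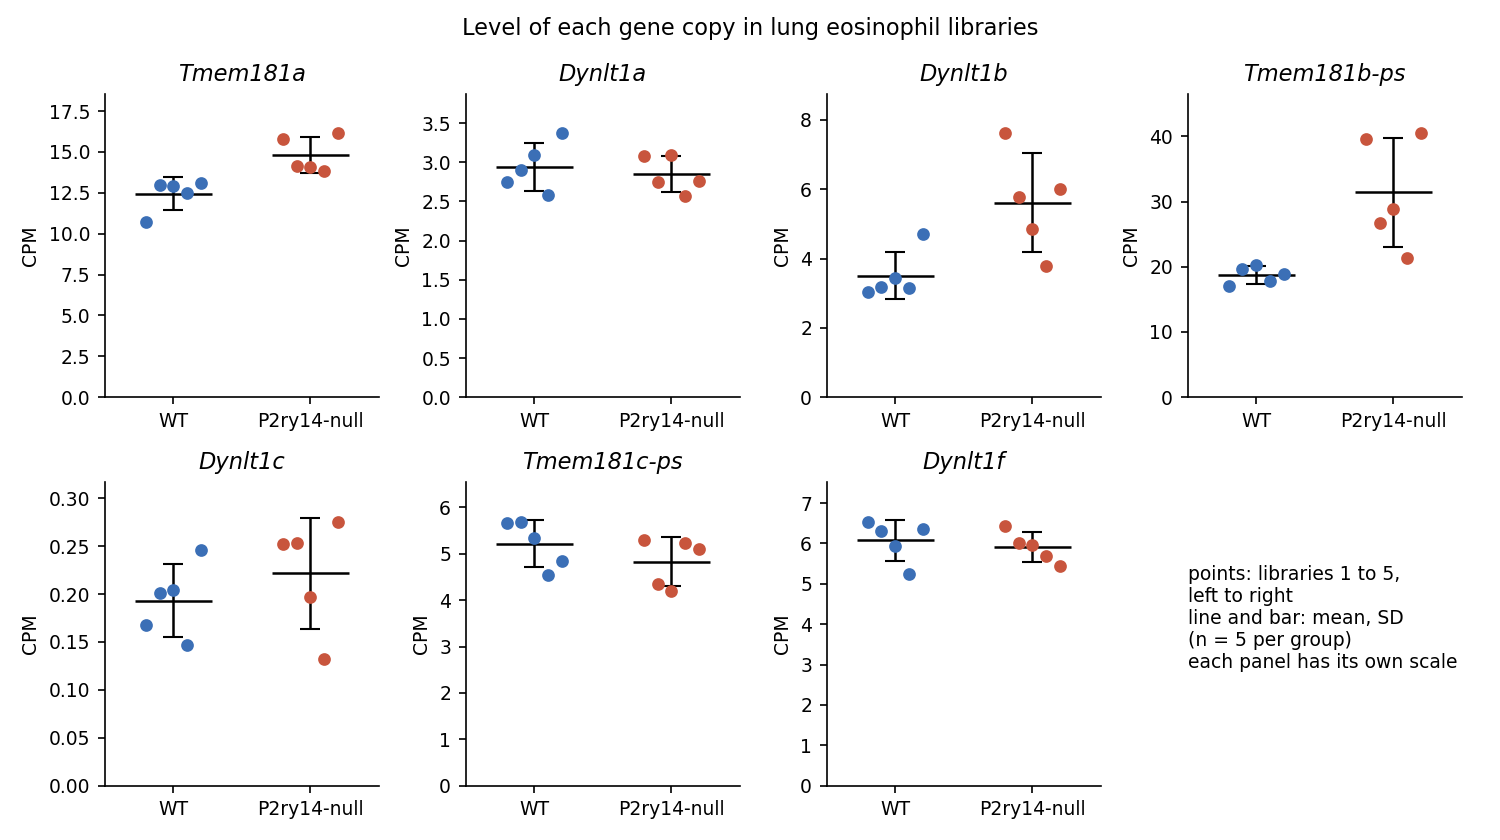
CPM of each copy (y axes from 0, a separate scale per panel, copies in chromosome order) in WT (blue) and P2ry14-null (red) libraries 1 to 5 from left to right, with the mean and SD of 5. P2ry14-null libraries of Tmem181b-ps range from 21.4 to 40.5 CPM against 17.04 to 20.3 in WT, while Dynlt1a, Dynlt1c, Dynlt1f and Tmem181c-ps show overlapping groups.

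All 7 members passed the filter on low counts. With edgeR and Benjamini-Hochberg adjustment over the 15586 genes tested, 0 of the 7 were called, where 6 genes (0.0385%) were called in all. DESeq2 called 2 of the 7, Tmem181b-ps and Dynlt1b, where it called 0.116% of the 16357 genes it gave an adjusted p. Without P2ry14-null library 4, edgeR called 1 of the 7, Tmem181b-ps, where 0.0252% of genes were called. The groups did not overlap, with P2ry14-null higher, in 2 of the 7, Tmem181a and Tmem181b-ps, as in 45 (0.289%) of the 15586 genes. Because the contrast chose the members, nothing is read from these counts. P2ry14-null library 2, which stood apart in other cell markers, is not needed for these values: without it the log2 fold changes were 0.80 for Tmem181b-ps, 0.66 for Dynlt1b and 0.26 for Tmem181a.

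Reads of near-identical copies can be exchanged between rows, so the rows of a family were also summed. The 3 Tmem181 rows together held 33.4 to 38.5 CPM in WT and 40.4 to 61.7 CPM in P2ry14-null. The summed log2 fold change was 0.49 ± 0.11 (SE). Every P2ry14-null library was above every WT library, as in 0.289% of the 15586 genes tested as single rows. Tmem181b-ps, chosen for being higher, made up 51.0% to 65.6% of these reads, so nothing is read from this. The 4 Dynlt1 rows together held 11.1 to 14.7 CPM in WT and 12.2 to 17.4 in P2ry14-null, with a summed log2 fold change of 0.20 ± 0.09 and overlapping groups. Of these 2 summed rows edgeR called 0, where it called 6 genes in that fit. Dynlt1-ps1, which shares 50-base words with Dynlt1b, Dynlt1c and Dynlt1f, is not part of the Dynlt1 sum. Exchange of reads with it is therefore not covered.

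The balance between copies within each family is given as a description only. Tmem181b-ps and Dynlt1b were chosen for being higher in P2ry14-null, so their higher shares are not separate evidence. Tmem181b-ps made up 51.0%, 51.3%, 52.6%, 51.2% and 51.2% of the reads on the 3 Tmem181 rows in WT libraries 1 to 5. It made up 65.2%, 59.1%, 61.2%, 52.8% and 65.6% in P2ry14-null libraries 1 to 5. This share does not depend on library scaling, and it was nearly constant in WT (SD 0.65 percentage points) and variable in P2ry14-null (SD 5.22). Dynlt1b made up 24.3% to 32.0% of the reads on the 4 Dynlt1 rows in WT and 31.1% to 43.8% in P2ry14-null. In both families P2ry14-null library 4 had the lowest share of its group and lay beside the WT libraries. The number of Dynlt1a reads per Dynlt1f read was 0.484 ± 0.045 in WT and 0.483 ± 0.030 in P2ry14-null (SD, n = 5 each).

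The adjacent copies Dynlt1b and Tmem181b-ps varied together between P2ry14-null libraries, as did several pairs of copies that are not adjacent. After the group means of log2 CPM were removed, Pearson's r between them was 0.723 over the 10 libraries, 0.858 within the 5 P2ry14-null and 0.268 within the 5 WT libraries. It ranged from 0.490 without P2ry14-null library 4 to 0.855 without WT library 5, so single libraries weigh on it. Tmem181b-ps had r = 0.750 with Dynlt1c, which lies 150.784 kb away and shares 0 of its 50-base words (0.826 within P2ry14-null), so adjacent copies did not stand apart in this. Tmem181a and Tmem181b-ps had r = 0.754, and 0.948 within P2ry14-null. Tmem181b-ps had r = 0.0842 with Dynlt1f and 0.220 with Tmem181c-ps. Dynlt1b and Dynlt1c had r = 0.859, where Dynlt1c rests on few reads and 551 of the 722 different 50-base words of Dynlt1b also occur in Dynlt1c. Dynlt1a and Dynlt1b, which also share 551 such words, had r = 0.687. Dynlt1c and Dynlt1f share 2970 and had r = 0.351. Whether shared reads set these values was not tested. These correlations are descriptions over libraries that share their processing, and copies that share sequence can share reads.

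**Figure D3:**
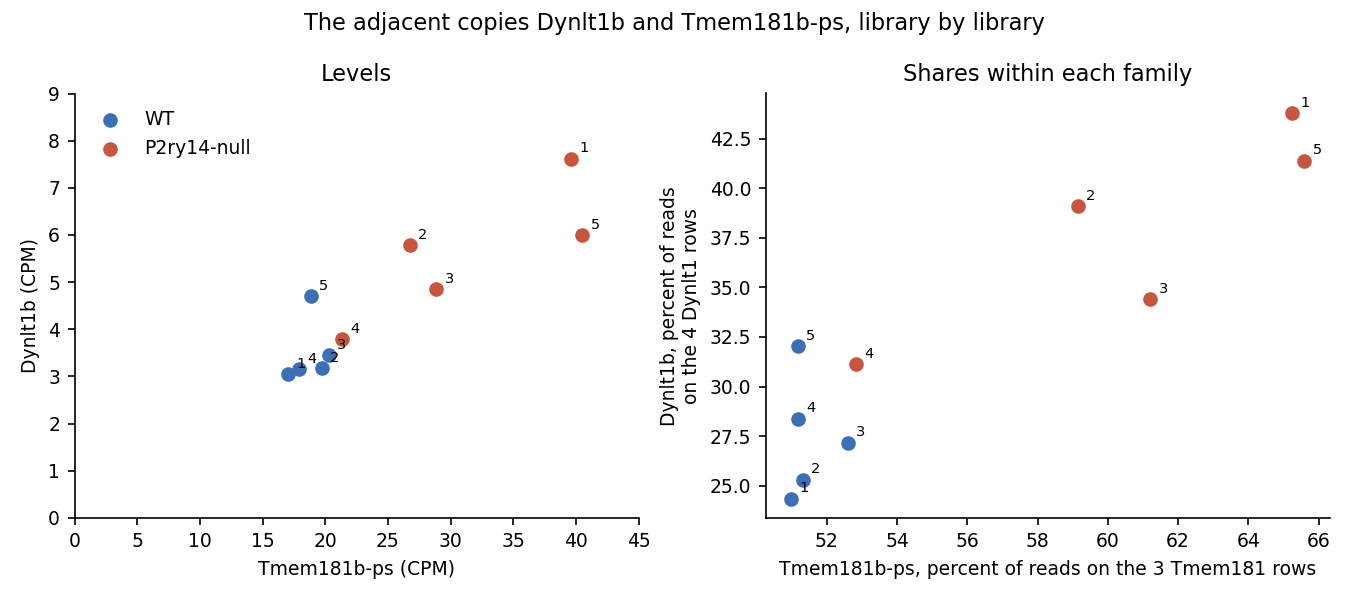
Left, CPM of Dynlt1b against CPM of Tmem181b-ps per library, with both axes from 0. Right, the share of each copy among the reads of its family in percent, with axes that do not start at 0, for WT (blue) and P2ry14-null (red) libraries numbered 1 to 5. P2ry14-null libraries 1 and 5 are highest in the shares of both copies, and P2ry14-null library 4 lies nearest to the WT libraries.

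The genes whose library-to-library pattern was most like that of Tmem181b-ps were Ripor2 (r = 0.914), Ints7 (0.875), Riok1 (0.872) and Rfxank (0.866), out of 8820 genes with at least 5 CPM, over the 10 libraries with group means removed. For Dynlt1b they were F830208F22Rik (0.905), Adap2 (0.883), Mocs1 (0.865) and Gm39556 (0.860). None of these 8 genes lies within 1 Mb of the copies, and with 10 libraries and 8820 genes such values are the top of a long list.

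Levels of different copies can be compared only per length. Scaled to the GENCODE exon length inside the span that the count table gives, Tmem181b-ps had 7.59 CPM per kb (mean of 10 libraries, 3305 exon bases), Tmem181c-ps 7.43 (676 bases) and Dynlt1b 5.91 (771 bases). Tmem181a had 2.08 CPM per kb, Dynlt1f 1.65, Dynlt1a 0.683 and Dynlt1c 0.116. The ranges over libraries of Tmem181b-ps, Tmem181c-ps and Dynlt1b overlapped from one to the next in this order, as did those of Tmem181a and Dynlt1f. They did not overlap between Dynlt1b and Tmem181a, Dynlt1f and Dynlt1a, or Dynlt1a and Dynlt1c. Dynlt1c stood lowest on each scale used. Its coding sequence is that of Dynlt1f, and the 142 bases shown upstream differ at 3 positions. In Dynlt1c those bases end at 6601670, short of its start at 6601779. Only 11.07% of its 50-base words are private, and whether the assignment of shared reads affects its level was not tested. Dynlt1a had rank 6 on each scale. The order of the remaining copies depends on the length used, and the gene models behind the counts may differ from GENCODE. Tmem181c-ps has 1386 exon bases there, of which 676 lie inside the table's span. For Dynlt1c, 1786 of 3777 exon bases do.

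The genes around the copies were examined next. Of 37 other rows within 1 Mb of the outermost copies, 18 were tested, and edgeR called 0 of them, where 0.0385% of all genes were called (1 at an unadjusted p under 0.05, 0 in DESeq2). Of the 18, 6 had a log2 fold change above 0 and 12 below, with a median of -0.07, where 51.2% of all tested genes lay above 0 with a median of 0.0025. Snx9, a sorting nexin of endocytosis, ran from 5.87 to 7.84 CPM in WT and from 7.45 to 10.6 in P2ry14-null (log2 fold change 0.33 ± 0.11, edgeR adjusted p = 0.999). Ezr, the membrane to actin linker ezrin and the most abundant neighbour by CPM, had 411 ± 16.1 and 392 ± 15.3 CPM (SD, n = 5 each), at -0.07 ± 0.05. Serac1 was at -0.11 ± 0.08 and Rps6ka2, a kinase of the RSK family, at 0.04 ± 0.07.

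**Figure D4:**
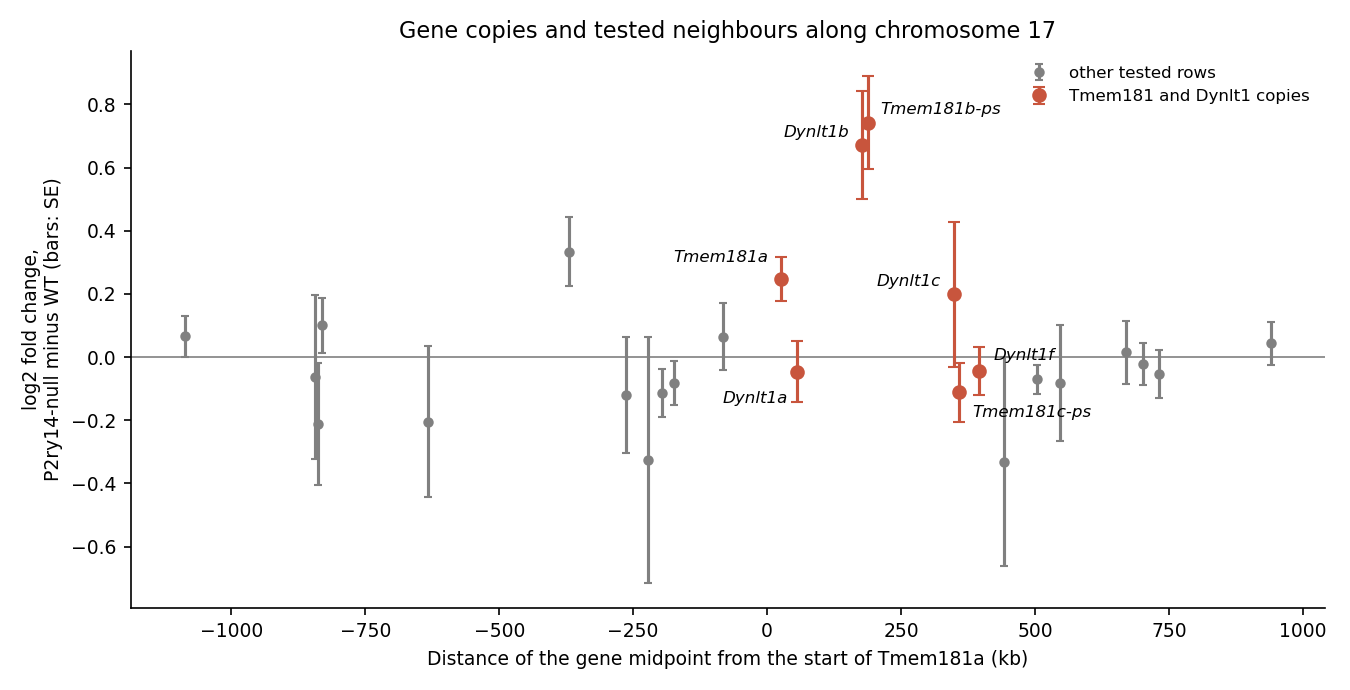
Log2 fold change (P2ry14-null minus WT, bars are SE) of the 7 copies (red) and the 18 tested neighbours (grey) against the distance of each gene's midpoint from the start of Tmem181a, in kb. Dynlt1b at 0.67 and Tmem181b-ps at 0.74 stand side by side above the other points, while the tested neighbours lie between -0.33 and 0.33. Dynlt1b and Tmem181b-ps were chosen for being higher in this contrast and the neighbours were not, so nothing is read from their height.

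Few genes were called anywhere: edgeR called 0.0385% of all genes tested, and 644 of the 15586 had an unadjusted p under 0.05, so a count of 0 in a short list is near the background. In the list of 15 cytoplasmic dynein genes, 13 were tested and edgeR called 0 (0 at an unadjusted p under 0.05, 0 in DESeq2), with 4 log2 fold changes above 0, 9 below and a median of -0.02. The heavy chain Dync1h1, which holds the motor domain, averaged 418 ± 57.6 CPM over WT libraries and 408 ± 10.3 over P2ry14-null (SD, n = 5 each), at -0.04 ± 0.08. The intermediate chain Dync1i2, to which the light chains bind, had 147 ± 6.14 and 148 ± 6.84 CPM, at 0.01 ± 0.05. The light chains of another family, Dynll1 and Dynll2, were at -0.16 ± 0.09 and -0.06 ± 0.05. Dynlt3, the other Tctex-type light chain of the list, named here after its value was seen, had 40.2 ± 5.601 and 40.0 ± 1.85 CPM, at -0.01 ± 0.08, and Dynlrb1, a light chain of the roadblock family named likewise, was at -0.05 ± 0.06. Wdr34, an intermediate chain of the ciliary dynein, was at -0.19 ± 0.18 with 0.417 and 0.362 CPM.

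Dynactin, the cofactor that ties dynein to its cargo, gave 0 called by edgeR of 12 tested genes, against 0.0385% of all genes (0 at an unadjusted p under 0.05, 0 in DESeq2), with a median of -0.0031 and all values between -0.05 and 0.06. Capzb and Capza2, which cap the actin-like filament of dynactin and actin itself, were its most abundant genes by CPM, at -0.05 ± 0.06 and -0.01 ± 0.08. Actr1b, an actin-related subunit, was at 0.06 ± 0.04, the subunit Dctn2 at -0.04 ± 0.05 and Capza1 at 0.05 ± 0.06. Of 20 adaptors and regulators of dynein, 18 were tested and edgeR called 0, a share near the same background (1 at an unadjusted p under 0.05, 0 in DESeq2), with a median of 0.0089. Hook2, an adaptor of the Hook family, ran from 4.44 to 5.56 CPM in WT and from 4.14 to 4.42 in P2ry14-null (-0.21 ± 0.08, edgeR adjusted p = 0.999). Spdl1, the kinetochore adaptor, was at -0.22 ± 0.14 with under 0.5 CPM, Hook3 at 0.10 ± 0.09, and the abundant Nin and Numa1 at 0.05 ± 0.06 and 0.01 ± 0.06.

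The relatives of Tmem181 with a GOLD domain gave similar values in both groups. Of 7 listed genes, 6 were tested and edgeR called 0, where 0.0385% of all genes were called (0 at an unadjusted p under 0.05, 0 in DESeq2), with log2 fold changes from -0.02 to 0.03. Gpr107 averaged 58.6 ± 2.17 CPM over WT libraries and 59.1 ± 1.91 over P2ry14-null (SD, n = 5 each), and Tmem87a had 57.0 ± 3.77 and 56.9 ± 2.70. Wls was at 0.03 ± 0.05, Tmem87b at 0.03 ± 0.07 and Gpr180 at 0.03 ± 0.06. A p that misses the threshold does not show that levels were equal, and the SE of these values bounds what could be seen.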

How the data were processed

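RNA of 10 libraries was sequenced from sorted lung eosinophils, 5 P2ry14-null and 5 WT. The table deposited by the authors holds unnormalized counts, one row per gene, with mm10 coordinates. STAR 2.5, Subread, featureCounts 1.5.0-p1 and DESeq2 are named per the submitters' processing notes. No annotation release, strand setting or treatment of reads with several matches is given in the sources used here, so opposite-strand overlaps such as Tmem181a with Dynlt1a cannot be separated.

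edgeR 4.0.16 (R 4.3.3) was fitted to the counts of all libraries with TMM factors, its default low-count filter and genotype alone. Quasi-likelihood F tests were adjusted by Benjamini-Hochberg over 15586 genes (threshold 0.05). CPM uses TMM-scaled sizes, and the SE is the log2 fold change over the square root of F. Log2 CPM for correlations used a prior count of 2. The fit was tested on simulated data. DESeq2 1.42.0, RLE factors, no filter, the replicate block, summed rows and leaving out each library were alternatives. Transcript words, coding bases and alignments came from GENCODE M21 with Biopython 1.88. Group and replicate number came from the titles, and no 2 libraries of a group agreed within sampling noise (chi-square of 24.2 or more per gene).

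The members and lists were chosen with earlier results of these data known. Named genes were the members, P2ry14, in each list the 3 with the smallest p (none was called) plus the 2 highest by CPM, and the 4 most alike in pattern to Tmem181b-ps and to Dynlt1b. Gm29719, Gm2808, Gm29721, Dynlt3, Dynlrb1, Dynlt1-ps1 and the neutrophil and alveolar macrophage markers were named after their values were seen.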

Additional observations from a re-analysis of the deposited data

Results flagged for a closer look

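Of 14 groups of 5 libraries (7 copies in each genotype), 2 held a library far from the other 4 by Dixon's gap test at the 95% level, which flags about 1 in 20 groups by chance. In Tmem181a, WT library 1 had 10.7 CPM where the next lowest WT library had 12.5 (gap of 0.752 of the range, critical value 0.71). In Dynlt1b, WT library 5 had 4.71 CPM where the next highest had 3.45 (0.757). Without WT library 1 the log2 fold change of Tmem181a was 0.20, and without WT library 5 that of Dynlt1b was 0.80.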

How the results depend on the processing

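The log2 fold changes of Tmem181a, Tmem181b-ps, Dynlt1b and Dynlt1c were above 0 in all 15 fits of single rows, so this sign does not mark out the members chosen for being higher. With single libraries left out they ran from 0.20 to 0.27, from 0.63 to 0.85, from 0.54 to 0.80 and from 0.10 to 0.34. Those of Tmem181c-ps, Dynlt1a and Dynlt1f ran from -0.15 to -0.06, from -0.08 to 0.01 and from -0.09 to -0.01. Over all genes edgeR called 6, DESeq2 called 19, and with single libraries left out edgeR called 3 to 5 (3 without P2ry14-null library 1, 2, 3 or 5 or WT library 4). Members called by edgeR were 0, against 2 in DESeq2 and 0 to 1 with single libraries left out (Tmem181b-ps, without P2ry14-null library 4). No list gained a call under any alternative run. The labels do not say whether replicate numbers pair libraries. Correlations of same-numbered libraries ran from -0.0933 to 0.094, which cannot settle it. With the replicate block edgeR called 6 genes and 0 members, and Tmem181b-ps was at 0.70 and Dynlt1b at 0.65. The correlation of Tmem181b-ps with Dynlt1b, left out 1 library at a time after the data were seen, ran from 0.490 to 0.855. Of the 7 ranks by CPM per kb of exon, 3 were the same by CPM without length and 2 by CPM per kb of private 50-base words, a scale added after the data were seen. Those words were counted over whole transcripts, also outside the counted span. Summing rows by family gave 0.49 for Tmem181 and 0.20 for Dynlt1. Depth limits Dynlt1c most, at 17 to 43 reads per library.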
